A study of Mus musculus with 4 samples.

Results

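The genes described here are 41 drivers and brakes of the cell division cycle: the cyclins and cyclin-dependent kinases, the kinase inhibitors, the retinoblastoma family and E2F factors, DNA replication and mitosis markers, and the Btg, Gadd45 and p53 genes of arrest. They were picked by symbol, as known genes of the cycle, from 25567 genes that could be named in the files, and all 41 were found. RNA came from stromal cells of adult C57BL/6 mouse prostate, sorted as Lin-CD24-CD49f-Sca-1+ (without lineage markers, CD24 or CD49f, with the surface protein Sca-1). The cells were taken from the proximal ducts, next to the urethra, or from the distal ducts at the tips of the lobes, with 2 libraries per region numbered 2 and 3 in both. The groups share strain and sort and carry no genetic change or treatment in the labels, and no label gives sex, exact age, a pooling of animals or a separate animal for each library, so the p-values below reflect variation among 4 libraries that could be technical. Levels are FPKM, fragments scaled to transcript length and to the fragments mapped in each library, summed over the transcripts of a gene. FPKM is scaled to length, so levels can be compared between genes. Between libraries it is a relative measure. The median difference of number 3 minus number 2 over all tested genes was -0.33 on the log2 scale. In RNA pooled over many cells, fewer cells of a type and less RNA per cell cannot be told apart.

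A cell commits to division when D cyclins with Cdk4 or Cdk6, and then cyclin E with Cdk2, phosphorylate the retinoblastoma proteins and free the E2F factors, which switch on the genes of DNA replication. Cyclin A and the B cyclins with Cdk1 then carry it through mitosis. The Ink4 proteins block Cdk4 and Cdk6, the Cip/Kip proteins act on several cyclin complexes, and p53, which Mdm2 marks for destruction, raises the Cip/Kip gene Cdkn1a and some Gadd45 genes after damage. Adult prostate stroma is known as a slowly dividing tissue.

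Some promoters of these genes carry the letters through which that circuit is read. Printed here are 7 windows of 250 bases before a RefSeq start (GRCm38.p6, the mm10 assembly), some with such letters and some without. Mcm7, a subunit of the replicative helicase (chr5:138171884-138172133, minus strand), stands for the replication genes, and Cdk1, the mitotic kinase (chr10:69352913-69353162, minus strand), for the mitotic genes. Cdkn1a has an upstream start (chr17:29090729-29090978, plus strand) and a downstream start (chr17:29093519-29093768, plus strand). Cdkn2c, an Ink4 inhibitor, has a downstream start (chr4:109665373-109665622, minus strand) and an upstream start (chr4:109666757-109667006, minus strand), and its transcripts from these differed in the libraries. Gadd45a, a stress-induced arrest gene (chr6:67037408-67037657, minus strand), was the member with the smallest unadjusted p. Capitals mark E2F words, CHR words (the cell cycle homology region of mitotic genes), CCAAT boxes or p53 consensus units.
Mcm7: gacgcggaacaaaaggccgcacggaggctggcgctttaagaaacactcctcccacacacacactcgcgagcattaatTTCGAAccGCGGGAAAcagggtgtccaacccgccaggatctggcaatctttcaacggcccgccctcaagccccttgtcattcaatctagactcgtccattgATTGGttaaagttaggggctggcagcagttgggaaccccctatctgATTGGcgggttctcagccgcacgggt
Cdk1: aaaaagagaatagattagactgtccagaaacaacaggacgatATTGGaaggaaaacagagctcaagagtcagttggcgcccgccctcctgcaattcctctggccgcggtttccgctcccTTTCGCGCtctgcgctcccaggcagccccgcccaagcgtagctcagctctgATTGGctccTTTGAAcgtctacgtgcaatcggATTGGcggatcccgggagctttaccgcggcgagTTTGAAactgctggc
Cdkn1a upstream start: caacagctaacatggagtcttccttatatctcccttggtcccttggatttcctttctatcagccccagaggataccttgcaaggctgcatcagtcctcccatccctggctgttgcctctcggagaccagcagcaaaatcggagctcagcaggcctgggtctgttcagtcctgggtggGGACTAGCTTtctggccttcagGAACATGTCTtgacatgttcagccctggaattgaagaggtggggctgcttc
Cdkn1a downstream start: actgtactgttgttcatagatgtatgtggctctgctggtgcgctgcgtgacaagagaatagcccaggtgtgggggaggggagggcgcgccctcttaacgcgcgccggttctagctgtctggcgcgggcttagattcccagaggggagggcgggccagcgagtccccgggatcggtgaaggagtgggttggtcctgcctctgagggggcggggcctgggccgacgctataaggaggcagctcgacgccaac
Cdkn2c downstream start: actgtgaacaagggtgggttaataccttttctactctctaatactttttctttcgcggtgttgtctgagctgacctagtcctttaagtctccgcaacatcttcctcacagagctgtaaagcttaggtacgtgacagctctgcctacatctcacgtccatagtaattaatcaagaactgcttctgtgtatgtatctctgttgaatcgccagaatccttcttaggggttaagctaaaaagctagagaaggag
Cdkn2c upstream start: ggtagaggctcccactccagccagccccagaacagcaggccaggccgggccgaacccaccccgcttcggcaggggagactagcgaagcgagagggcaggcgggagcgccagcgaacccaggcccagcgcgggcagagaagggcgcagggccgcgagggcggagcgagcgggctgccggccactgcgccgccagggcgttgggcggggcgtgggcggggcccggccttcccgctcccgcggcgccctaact
Gadd45a: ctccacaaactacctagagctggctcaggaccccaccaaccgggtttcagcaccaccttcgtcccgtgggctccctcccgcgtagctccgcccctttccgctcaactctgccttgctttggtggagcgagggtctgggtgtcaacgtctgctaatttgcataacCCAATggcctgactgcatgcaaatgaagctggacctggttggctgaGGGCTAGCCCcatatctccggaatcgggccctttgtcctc

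Of the 41 members, 34 had a window in the RefSeq table, with 41 windows in all. An E2F word (TTTCCCGC, TTTCGCGC, TTTGCCGC or TTTGGCGC, either strand) stood in 8 of these 41 windows and in 1.86% of all 32851 windows of that length. The 8 genes were Cdk1, Cdk2, Cdkn2a, E2f3, Mcm5, Mcm6, Mcm7 and Rbl1. A CHR word (TTTGAA or TTCGAA, either strand) stood in 10 member windows and in 17.1% of all windows, CCAAT in 26 and in 33.8%, and the p53 consensus unit, one decamer of the paired site, in 5 and in 7.13%. Those 5 belonged to Cdkn1a, Cdkn2d, Gadd45a, Mdm2 and Trp53. In the Mcm7 window the CHR word began 173 bases and the E2F word 165 bases before the start, and in the upstream Cdkn1a window the p53 units began 73 and 51 bases before it. The downstream Cdkn1a window and both Cdkn2c windows held none of these letters or of the cyclic AMP response element TGACGTCA, which stood in 3 member windows (Btg2, Cdkn2b and Mcm5) and in 1.55% of all. None of the 85 matches in member windows overlapped a match to another motif. A match says only that the letters are there.

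The 4 libraries held stromal RNA with a varying share of epithelial transcripts. All 10 fibroblast markers were measured, with the collagen-binding proteoglycan Dcn between 2353 and 3671 FPKM and Ly6a, which encodes Sca-1, between 687 and 1016 FPKM. Of 11 epithelial markers, none was at 0, and their summed level was 51.8 FPKM in distal 2, 123 FPKM in distal 3, 70.9 FPKM in proximal 2 and 512 FPKM in proximal 3. The 7 smooth muscle markers summed to 389 FPKM in distal 2, 270 FPKM in distal 3, 354 FPKM in proximal 2 and 191 FPKM in proximal 3. Summed endothelial, leukocyte and Schwann cell markers did not exceed 9.68, 4.59 and 0.795 FPKM. Ptprc, which all leukocytes carry, reached at most 0.12 FPKM. Between 10107 and 11400 genes reached 1 FPKM. The files hold no fragment totals, so depth is unknown.

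Stroma of both regions carried much RNA for early cell cycle and arrest genes and little for mitosis. At least 5 FPKM in at least 2 libraries was reached by 22 members, 12 of 16 arrest genes and 9 of 24 proliferation genes among them, and Mdm2. The median level of the proliferation genes was 1.85, 2.18, 2.26 and 2.02 FPKM in distal 2, distal 3, proximal 2 and proximal 3, and that of the arrest genes 19.1, 15.0, 22.2 and 13.6 FPKM. The plot of levels by library shows genes such as Ccnd2, Ccnd3, Cdk4, Cdkn1a and the Btg, Gadd45 and p53 genes to the right. The mitotic genes lie at the left edge. With region as the only term, 0 of 34 tested members passed between regions (limma, adjusted p = 0.999909 for each, Benjamini-Hochberg over 11212 genes). Of all tested genes, 0 passed (0% in each direction). A fit with the library number added is given in the closing section. At an unadjusted p under 0.05 the test gave 0 members and 354 genes (3.16%). Without distal replicate 2 or distal replicate 3, 40 genes (0.357%) and 26 genes (0.232%) passed the adjusted test, and again 0 members.

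**Figure D1:**
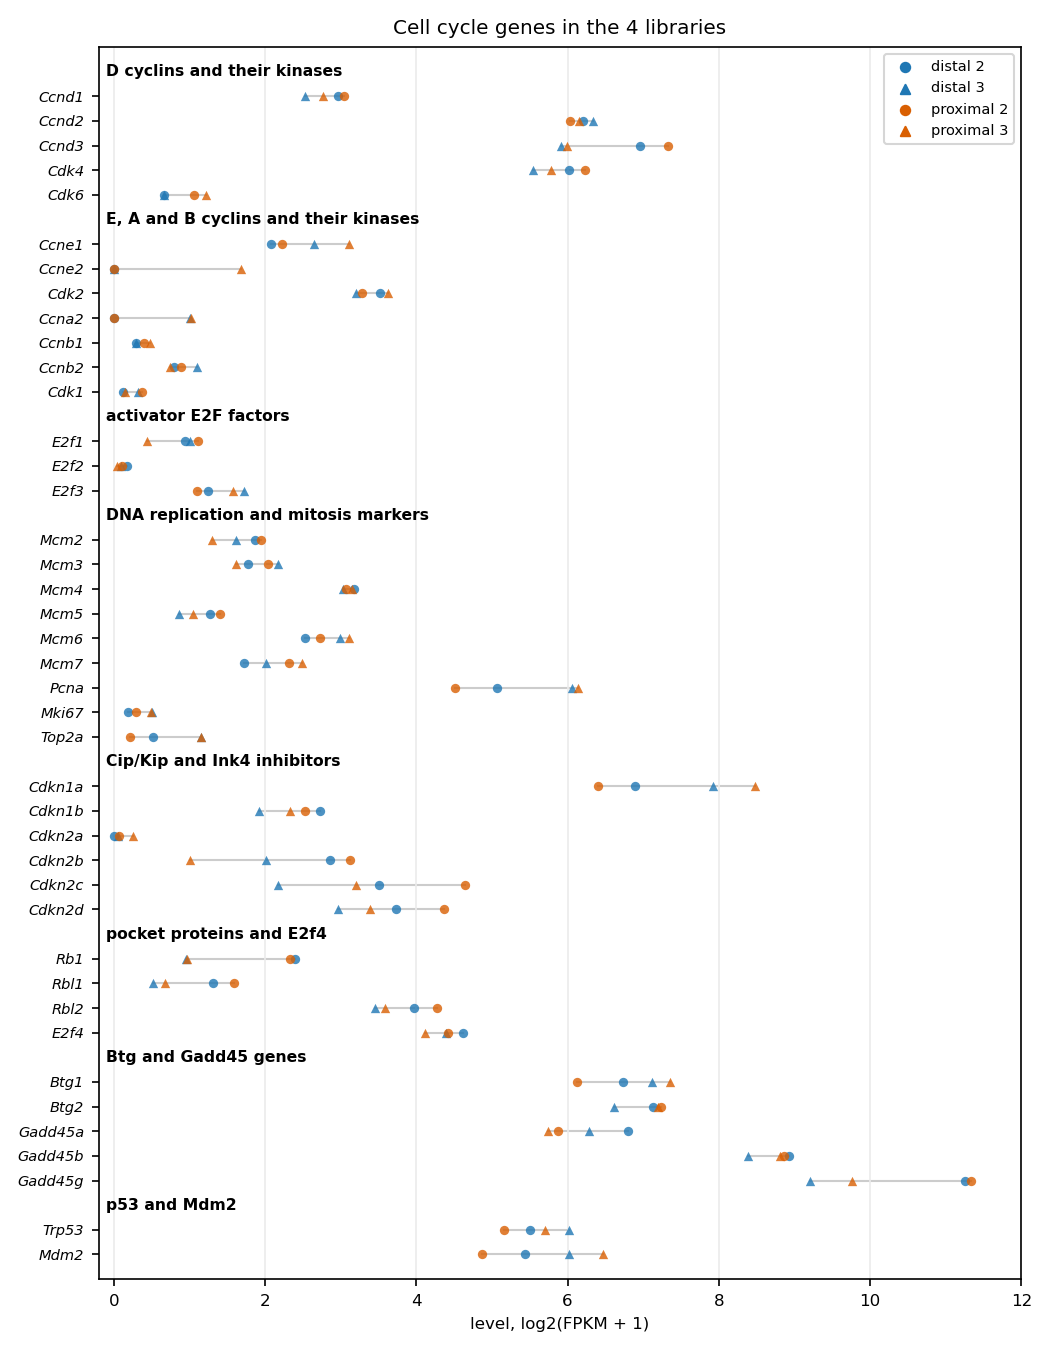
Level of each of the 41 genes on the x axis as log2(FPKM + 1), with 1 point per library (blue distal, orange proximal, circles number 2, triangles number 3) and a grey line over their range. Gadd45g reaches the highest levels, 590 to 2586 FPKM, while Mki67, Cdk1, Ccnb1, E2f2 and Cdkn2a stay under 1 FPKM in every library.

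Among the cyclins that open the cycle, Ccnd2 and Ccnd3 were abundant and Ccnd1 was not. Ccnd2 had distal levels of 72.5 (number 2) and 79.7 FPKM (number 3) and proximal levels of 64.7 and 70.1 FPKM. Both proximal values lay below both distal values, with means of 67.4 ± 3.83 and 76.1 ± 5.07 FPKM (SD, n = 2 each), but the log2 difference of -0.17 ± 0.30 (SE) was within the spread. It was -0.10 without distal replicate 3, -0.11 without proximal replicate 2, -0.10 with the highest transcript only and -0.29 under median ratio scaling. The regions parted only in the sum of the Ccnd2 transcripts. The 5771-base transcript read 33.4 and 39.1 FPKM in distal against 25.1 and 35.4 FPKM in proximal libraries (numbers 2 and 3). The 1047-base transcript read 39.1 and 40.5 against 39.6 and 34.7 FPKM. Ccnd3 measured 123 FPKM in distal 2, 59.2 in distal 3, 159 in proximal 2 and 62.5 in proximal 3, so its libraries parted by number and overlapped between regions. All of the Ccnd3 signal was assigned to 1 transcript of 1979 bases that begins at the downstream start. Ccnd1 read 6.81 and 4.79 FPKM in distal against 7.27 and 5.82 FPKM in proximal libraries (numbers 2 and 3). Their kinase Cdk4 had distal levels of 63.9 and 45.7 FPKM and proximal levels of 74.4 and 54 FPKM, overlapping between regions. Cdk4 ends inside the neighbouring gene Tspan31, and the kit does not mark strand, so some fragments could belong to either.

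Cdk6, the other partner of the D cyclins, was far lower, with distal levels of 0.587 and 0.583 FPKM and proximal levels of 1.08 and 1.32 FPKM. The proximal libraries exceeded the distal ones, with means of 1.20 ± 0.168 and 0.585 ± 0.00243 FPKM (SD, n = 2 each). Only the proximal libraries reached the 1 FPKM needed for testing, so Cdk6 was tested through the region where it was higher. The log2 difference was 0.47 ± 0.35 (SE), and it was 0.39 within number 2 and 0.55 within number 3. With a pseudocount of 0.1 it was 0.92, and under quantile normalization 0.25. Its gene lies at chr5:3341485-3531008 (plus strand).

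Cyclins and kinases of the later phases were low, except Cdk2 and Ccne1. Cdk2 read 10.5 and 8.23 FPKM in distal against 8.76 and 11.3 FPKM in proximal libraries (numbers 2 and 3). Its partner Ccne1 had distal levels of 3.22 and 5.26 FPKM and proximal levels of 3.66 and 7.61 FPKM, higher in both libraries numbered 3. Ccnb2 stood between 0.667 and 1.15 FPKM, Ccnb1 between 0.221 and 0.391 FPKM and Cdk1 between 0.0863 and 0.295 FPKM, and in each of them the libraries numbered 2 and 3 overlapped. Ccna2 was listed at 0 in both libraries numbered 2 and at 1.01 and 1.02 FPKM in distal 3 and proximal 3. Ccne2 was listed at 0 in 3 libraries and at 2.21 FPKM in proximal 3. Both share an end with an expressed neighbour, Exosc9 and Ints8, and the part of these overlaps in the zeros was not tested. Of the 7 members in this role, 3 were tested, and all of those 3 had regions that overlapped. Ccnb1, too low to be tested, stood at 0.221 and 0.227 FPKM in distal and 0.321 and 0.391 FPKM in proximal libraries (numbers 2 and 3), without overlap.

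The activator E2F factors and the helicase subunits were low. E2f1 ranged from 0.36 to 1.17 FPKM, E2f2 from 0.0279 to 0.127 FPKM and E2f3 from 1.14 to 2.30 FPKM. Of the helicase subunits, Mcm4 read 8.06 and 7.16 FPKM in distal against 7.43 and 7.89 FPKM in proximal libraries (numbers 2 and 3), the closest match between regions among them. Mcm6 had distal levels of 4.79 and 6.92 FPKM and proximal levels of 5.63 and 7.66 FPKM, higher in both libraries numbered 3. Mcm2, Mcm3 and Mcm5 ranged from 1.46 to 2.86, from 2.06 to 3.51 and from 0.815 to 1.65 FPKM. The 6 subunits work as 1 ring, yet their levels ranged from 0.815 to 8.06 FPKM.

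Mcm7, whose promoter is printed above, was the helicase subunit with regions that did not overlap. It had distal levels of 2.30 (number 2) and 3.04 FPKM (number 3) and proximal levels of 3.99 and 4.62 FPKM. Each proximal library was above each distal library, with means of 4.31 ± 0.447 and 2.67 ± 0.526 FPKM (SD, n = 2 each). The authors' bounds ended at 3.45 FPKM in distal 3 and began at 3.47 FPKM in proximal 2, which covers estimation error within a library only. The log2 difference was 0.54 ± 0.41 (SE), with 0.60 within number 2 and 0.48 within number 3, and was 0.34 under quantile normalization. Mcm7 lies at chr5:138164583-138172422 (minus strand) and its start overlaps Ap4m1.

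Pcna, Mki67 and Top2a parted by library number, which Cdk1, Ccnb1 and Ccnb2 did not. Pcna, the sliding clamp of DNA polymerases and also a repair factor, measured 32.6 FPKM in distal 2, 65.9 in distal 3, 21.9 in proximal 2 and 69.7 in proximal 3. Mki67, the Ki-67 antigen of cycling cells, read 0.136 and 0.418 FPKM in distal against 0.221 and 0.408 FPKM in proximal libraries (numbers 2 and 3). Top2a, the topoisomerase of late S phase and mitosis, had distal levels of 0.425 and 1.23 FPKM and proximal levels of 0.157 and 1.22 FPKM. All 3 were higher in both libraries numbered 3, as were 20.3% of all tested genes, and overlapped between regions. Mki67 was too low to be tested, and Top2a reached the 1 FPKM needed for testing only in the libraries numbered 3. In proximal 2 and distal 2 the upper bounds of Mki67 given by the authors were 0.279 and 0.180 FPKM, below the lower bounds of 0.332 and 0.348 FPKM in proximal 3 and distal 3.

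Of the kinase inhibitors, Cdkn1a was the most abundant. It had distal levels of 118 (number 2) and 241 FPKM (number 3) and proximal levels of 83.3 and 354 FPKM. The proximal libraries held both the lowest and the highest value, so the regions overlapped widely. All of it was assigned to the 1910-base transcript of the downstream start, and the 1936-base transcript of the upstream start, whose window holds the p53 units printed above, was listed at 0 in every library with upper bounds of 0.0337 to 0.0411 FPKM. Cdkn1b, which holds resting cells in arrest, ranged from 2.77 to 5.63 FPKM. Cdkn2a, a locus known for senescence, was listed between 0 and 0.187 FPKM with lower bounds of 0 in each library.

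The Ink4 inhibitors Cdkn2c and Cdkn2d had higher proximal values within each library number, and their regions overlapped. Cdkn2c measured 10.4 FPKM in distal 2, 3.50 in distal 3, 24.1 in proximal 2 and 8.18 in proximal 3. Its log2 difference was 1.09 ± 0.71 (SE), the largest of the 34 tested members, with 1.15 within number 2 and 1.03 within number 3. It was 0.36 without proximal replicate 2, 0.42 without distal replicate 3, 1.76 without distal replicate 2 and 1.81 without proximal replicate 3, fits in which region and number are mixed. Cdkn2d read 12.3 and 6.78 FPKM in distal against 19.7 and 9.49 FPKM in proximal libraries (numbers 2 and 3), a log2 difference of 0.53 ± 0.53 (SE), with 0.64 and 0.43 within the numbers. In the same fits it was 0.05, 0.15, 0.92 and 1.02. The third Ink4 gene with a tested level, Cdkn2b, had distal levels of 6.28 and 3.03 FPKM and proximal levels of 7.71 and 1.01 FPKM. Cdkn2c lies at chr4:109660876-109667189 and Cdkn2d at chr9:21288410-21291407, both on the minus strand.

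The 2 Cdkn2c transcripts, looked at after the gene's values were seen, were both higher in the proximal library within each number, and they differed in how number parted them. The 1106-base transcript from the downstream start had distal levels of 9.16 (number 2) and 2.36 FPKM (number 3) and proximal levels of 21.7 and 5.41 FPKM, lower in the libraries numbered 3, as is the gene total. The 2038-base transcript from the upstream start measured 1.19 FPKM in distal 2, 1.14 in distal 3, 2.46 in proximal 2 and 2.77 in proximal 3. Here each proximal library exceeded each distal one, and the authors' bounds ended at 1.55 FPKM in distal 2 and began at 1.93 FPKM in proximal 2. The estimation divides shared fragments between such transcripts, and single transcripts were not tested.

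**Figure D2:**
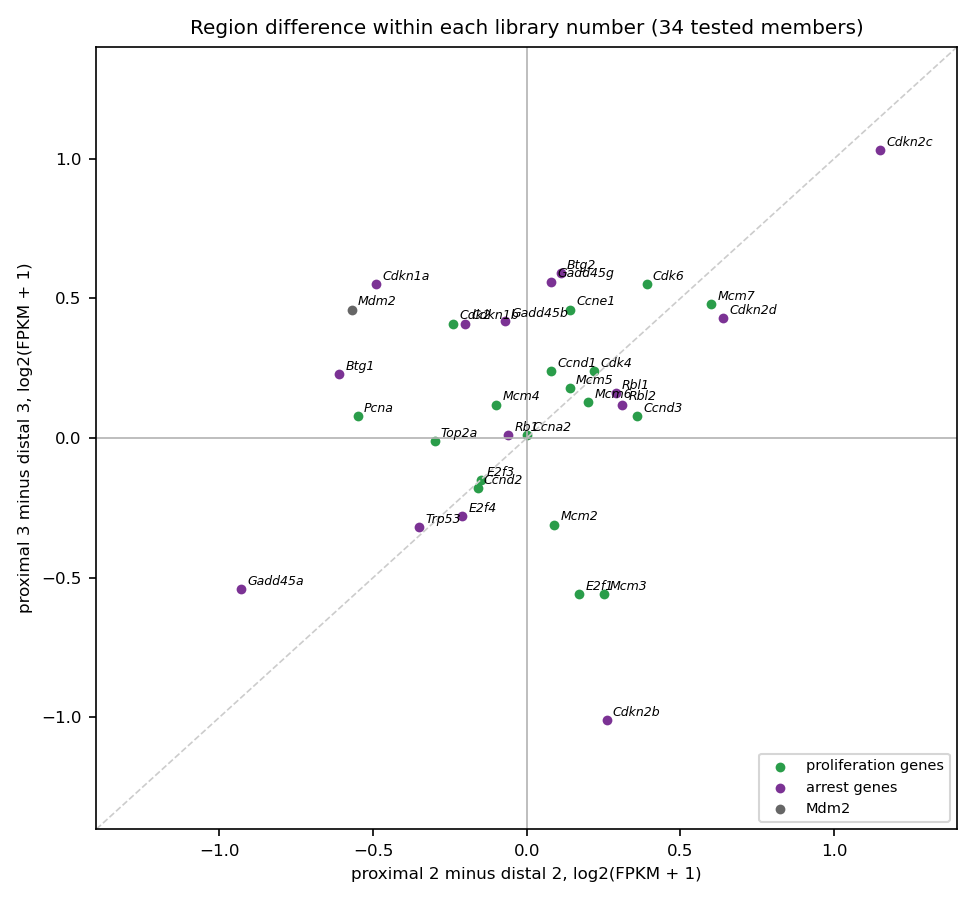
Proximal minus distal difference of log2(FPKM + 1) within the libraries numbered 2 (x axis) and within those numbered 3 (y axis), 1 point per tested member (green proliferation, purple arrest genes), with a dashed line where both are equal. Cdkn2c lies at 1.15 and 1.03 in the upper right, Gadd45a at -0.93 and -0.54 in the lower left, and 14 of 34 members have differences of mixed sign or of 0 within a number.

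The retinoblastoma family parted by number and overlapped between regions. Rb1 had distal levels of 4.25 (number 2) and 0.936 FPKM (number 3) and proximal levels of 4.02 and 0.949 FPKM. Rbl2, the family member of resting cells, read 14.6 and 10 FPKM in distal against 18.3 and 11 FPKM in proximal libraries (numbers 2 and 3). Rbl1 ranged from 0.426 to 2.01 FPKM. E2f4, the E2F factor that joins Rbl2 in the repressive DREAM complex of quiescence, had distal levels of 23.6 and 20 FPKM and proximal levels of 20.3 and 16.3 FPKM. All 4 were lower in both libraries numbered 3, as were 50.3% of all tested genes, and E2f4 exceeded each activator E2F in every library. Rb1 and Rbl1 reached the 1 FPKM needed for testing only in the libraries numbered 2.

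Of the Btg and Gadd45 genes, which slow the cycle and respond to stress, Gadd45g and Gadd45b had the highest mean levels of the 41 members. Gadd45g measured 2454 FPKM in distal 2, 590 in distal 3, 2586 in proximal 2 and 869 in proximal 3. Gadd45b read 488 and 332 FPKM in distal against 464 and 446 FPKM in proximal libraries (numbers 2 and 3). Both were lower in the libraries numbered 3, and both overlapped between regions. Btg1 had distal levels of 105 and 138 FPKM and proximal levels of 68.6 and 163 FPKM, higher in the libraries numbered 3.

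Gadd45a was the exception in its family, with higher distal values. It had distal levels of 110 (number 2) and 77 FPKM (number 3) and proximal levels of 57.4 and 52.7 FPKM. The 2 proximal libraries lay below both distal libraries, with means of 55.0 ± 3.35 and 93.6 ± 23.6 FPKM (SD, n = 2 each), and the authors' bounds ended at 61.1 FPKM in proximal 2 and began at 72.6 FPKM in distal 3. The log2 difference of -0.73 ± 0.33 (SE) had the smallest unadjusted p of the tested members, 0.0771 (limma), which adjustment took to 0.999909. It was -0.48 without distal replicate 2 and -0.99 without distal replicate 3. The gene lies at chr6:67035096-67037457 (minus strand). Btg2 had higher proximal values, 150 and 146 FPKM, than the distal 139 and 96.7 FPKM. Its means were 148 ± 2.68 and 118 ± 29.7 FPKM (SD, n = 2 each) and its log2 difference 0.35 ± 0.33 (SE), with 0.11 and 0.59 within the numbers. It was 0.09 without distal replicate 3, 0.61 without distal replicate 2 and 0.23 under median ratio scaling.

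The p53 gene and its antagonist were well expressed in both regions. Trp53 measured 44.5 FPKM in distal 2, 63.8 in distal 3, 34.7 in proximal 2 and 50.9 in proximal 3. Mdm2, itself a p53 target, read 42.3 and 63.6 FPKM in distal against 28.1 and 87.7 FPKM in proximal libraries (numbers 2 and 3). Both were higher in the libraries numbered 3, as were 20.3% of all tested genes. The order of the libraries for Mdm2 (proximal 2, distal 2, distal 3, proximal 3) was that of Cdkn1a, Pcna and Btg1, but not of Trp53 or Gadd45a. The share of all genes in that order was not counted.

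In all, 5 of 34 tested members had regions that did not overlap: Cdk6, Mcm7 and Btg2 with higher proximal and Ccnd2 and Gadd45a with higher distal values. Cdk6 reached the 1 FPKM needed for testing only in the proximal libraries, so it is counted through the region where it was higher. Ccnd2 parted only in the sum of its transcripts. Of all 11212 tested genes, 21.6% had regions that did not overlap (12.9% with higher proximal and 8.67% with higher distal values), so the members' share was not above the background. Without proximal replicate 3, the library with the highest epithelial markers, the count was 24 of 34 members against 77.7% of all genes, a comparison of 1 library with 2. Within both numbers, 14 members had higher proximal and 6 higher distal values, against 42.9% and 24.1% of all genes. The median log2 difference was 0.06 for the tested members, 0.05 for proliferation genes and 0.11 for arrest genes, beside 0.09 for all tested genes. Quantile normalization moved the median of all genes to -0.03 and that of the members to -0.07, so the members stayed near the background under either scale. The 5 members named kept their direction under each scaling.

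Library number parted more members than region did. Of the 34 tested members, 10 were higher and 15 lower in both libraries numbered 3 than in both numbered 2, where 20.3% of all genes were higher and 50.3% lower (70.6% together). The share of members parted by number is thus close to the background. Arrest genes made up 10 of the 15 lower members, namely Rb1, Rbl1, Rbl2, E2f4, Cdkn1b, Cdkn2b, Cdkn2c, Cdkn2d, Gadd45b and Gadd45g, and Ccnd1, Ccnd3, Cdk4, Mcm2 and Mcm5 were the others. The 10 higher members were Ccne1, Ccna2, E2f3, Mcm6, Pcna, Top2a, Cdkn1a, Btg1, Trp53 and Mdm2. To be tested, a gene had to reach 1 FPKM in 2 libraries. Ccna2 and Top2a did so only in the libraries numbered 3, and Rb1 and Rbl1 only in those numbered 2. Such members are counted through the libraries where they were higher. Cdkn1a differed by 1.03 between distal 3 and distal 2 and by 2.07 between proximal 3 and proximal 2 on the log2 scale, and Gadd45g by -2.05 and -1.57. The labels do not say what a number stands for, so these are values with no test.

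**Figure D3:**
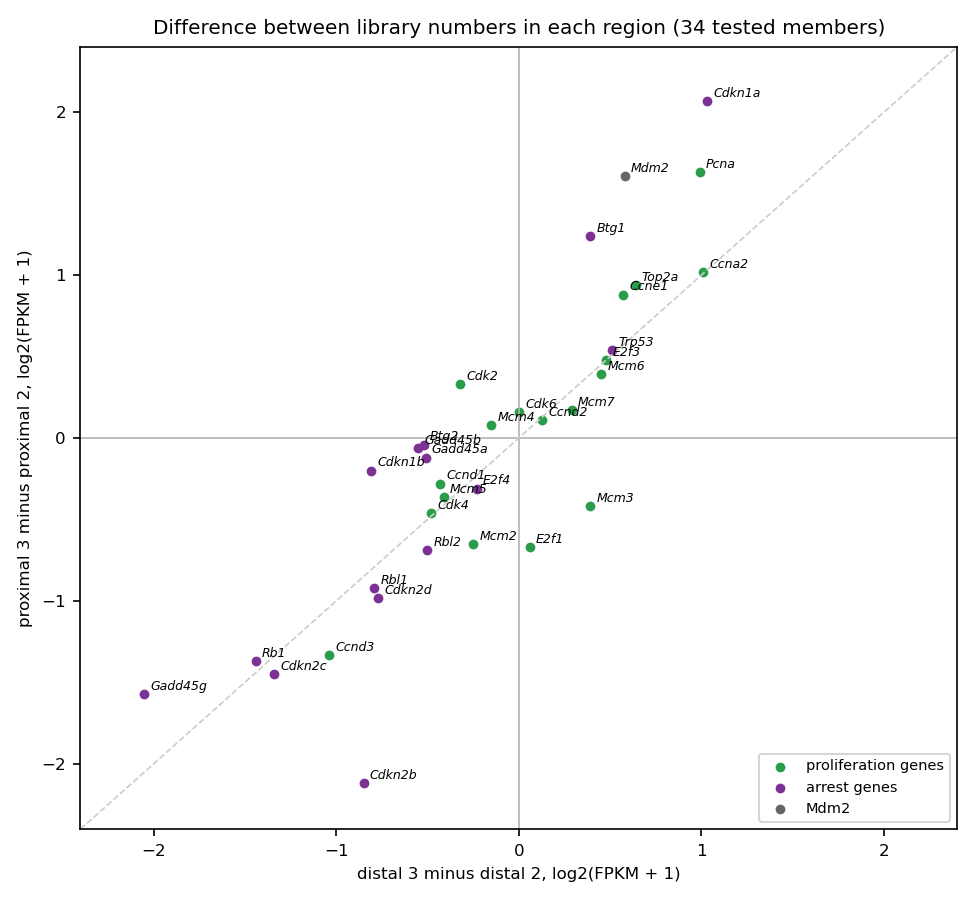
Difference of log2(FPKM + 1) between number 3 and number 2 in distal (x axis) and proximal libraries (y axis), 1 point per tested member, with a dashed line where both are equal. Cdkn1a, Pcna and Mdm2 lie at the upper right and Gadd45g, Cdkn2b, Cdkn2c and Rb1 at the lower left.

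Other measures moved with number too. The summed level of 18 dissociation and immediate early genes, such as Fos and Hspa1a, was 20530 FPKM in distal 2, 10732 FPKM in distal 3, 25517 FPKM in proximal 2 and 17233 FPKM in proximal 3, in the same order as Gadd45g. Of the 10 tested epithelial markers, 8 were higher in both libraries numbered 3 and 0 lower, and Epcam had distal levels of 2.97 (number 2) and 7.4 FPKM (number 3) and proximal levels of 3.89 and 30.1 FPKM. Among these 8, Krt5 reached the 1 FPKM needed for testing only in the libraries numbered 3. The tested members highest in proximal 3 were Pcna, Cdkn1a, Mdm2, Btg1, Ccne1, Ccna2, Cdk2, Cdk6, Mcm6 and Mcm7. The share of all genes highest in that library was not counted. The median difference of number 3 minus number 2 was -0.37 for genes with a leading transcript under 1500 bases, -0.40 from 1500 to 3000 bases and -0.26 above. The median proximal minus distal difference was 0.24, 0.11 and 0.01 in the same length classes. The leading transcripts of Cdkn2c and Cdkn2d, with 1106 and 1270 bases, fall in the shortest class, as do those of Gadd45g and Cdk4. These members had higher proximal values within each number. Ccnd2 and Gadd45a, with higher distal values within each number, and Pcna, Cdkn2b and Gadd45b, of mixed sign, fall in that class too. The part of these measures in the members' values was not tested.

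Other genes of the cycle, from lists that hold no member, also gave no call between regions: 0 genes passed in each list (limma). Of 38 other DNA replication genes, 25 were tested, with a median log2 difference of 0.24, and of 37 other mitosis genes 14 were tested, with a median of -0.04. Rrm2, the regulated subunit of ribonucleotide reductase, measured 158 FPKM in distal 2, 140 in distal 3, 69.1 in proximal 2 and 129 in proximal 3, far above its partner Rrm1 at 11.3 to 15.7 FPKM. Lig1, which joins Okazaki fragments, had distal levels of 2.07 and 3.22 FPKM and proximal levels of 1.78 and 1.1 FPKM. With higher proximal values, Tyms, which makes thymidylate, measured 1.9 FPKM in distal 2, 1.87 in distal 3, 4.76 in proximal 2 and 2.03 in proximal 3. Rpa2, which binds single-stranded DNA, read 6.77 and 9.12 FPKM in distal against 11.5 and 10.9 FPKM in proximal libraries. These 4 replication genes of 25 had regions without overlap, 2 in each direction, and of all genes 21.6% did. Tubb5, a tubulin that resting cells also make, read 86.3 and 72 FPKM in distal against 53.8 and 51.6 FPKM in proximal libraries (numbers 2 and 3). The ubiquitin-conjugating enzyme Ube2c had distal levels of 1.87 and 1.19 FPKM and proximal levels of 0.639 and 1.13 FPKM, and the mitotic kinase Aurka had the opposite order, with 0.868 and 1.23 against 1.39 and 1.84 FPKM. Of the mitosis genes, 9 of 14 were higher in both libraries numbered 3, against 20.3% of all genes. Among these 9, Ccnf and Prc1 reached the 1 FPKM needed for testing only in the libraries numbered 3. They are counted through the libraries where they were higher, so the filter has a part in this share. Of 21 tested genes of S phase entry (median 0.04), Wee1, which holds Cdk1 inactive, had distal levels of 6.15 and 4.11 FPKM and proximal levels of 9.62 and 7.8 FPKM. The 9 DREAM and MuvB genes had a median of -0.03.

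Other p53 targets went both ways. Of 25 tested targets, 3 had regions that did not overlap with higher proximal and 4 with higher distal values (median 0.07), beside 12.9% and 8.67% of all genes. Plk2, a kinase induced by p53 and by growth signals, had distal levels of 177 (number 2) and 303 FPKM (number 3) and proximal levels of 76.2 and 82.9 FPKM. Its log2 difference was -1.53 ± 0.37 (SE). Dram1, a lysosomal protein, read 18.9 and 14.6 FPKM in distal against 10.2 and 5.62 FPKM in proximal libraries (numbers 2 and 3). Bbc3, which encodes the death protein Puma, had distal levels of 1.46 and 1.48 FPKM and proximal levels of 3.5 and 4.69 FPKM. Phlda3, an inhibitor of Akt signalling, had distal levels of 124 and 104 FPKM and proximal levels of 103 and 66.5 FPKM. Of the members, Gadd45a, which p53 is known to raise, had higher distal values, and Cdkn1a and Mdm2, also p53 targets, overlapped between regions. The arrest gene Btg2 had higher proximal values without overlap.

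Quiescence regulators ranged from low to high levels, and early response genes were abundant in both regions. Of 22 tested anti-proliferative and quiescence regulators (median 0.24), Cebpd read 741 and 509 FPKM in distal against 478 and 444 FPKM in proximal libraries (numbers 2 and 3) and Nfib at 9.62 and 7.65 against 15.8 and 9.68 FPKM. Of the 18 tested dissociation and immediate early genes (median 0.37), 6 had higher proximal and 1 higher distal values with no overlap, beside 12.9% and 8.67% of all genes. Fosb had distal levels of 235 and 201 FPKM and proximal levels of 385 and 459 FPKM, and Hspa1a at 2671 and 1474 against 4174 and 3009 FPKM. Btg2 is itself known as an early response gene, and its region difference had the same direction. The part of this response in the Btg2 values was not tested.

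**Figure D4:**
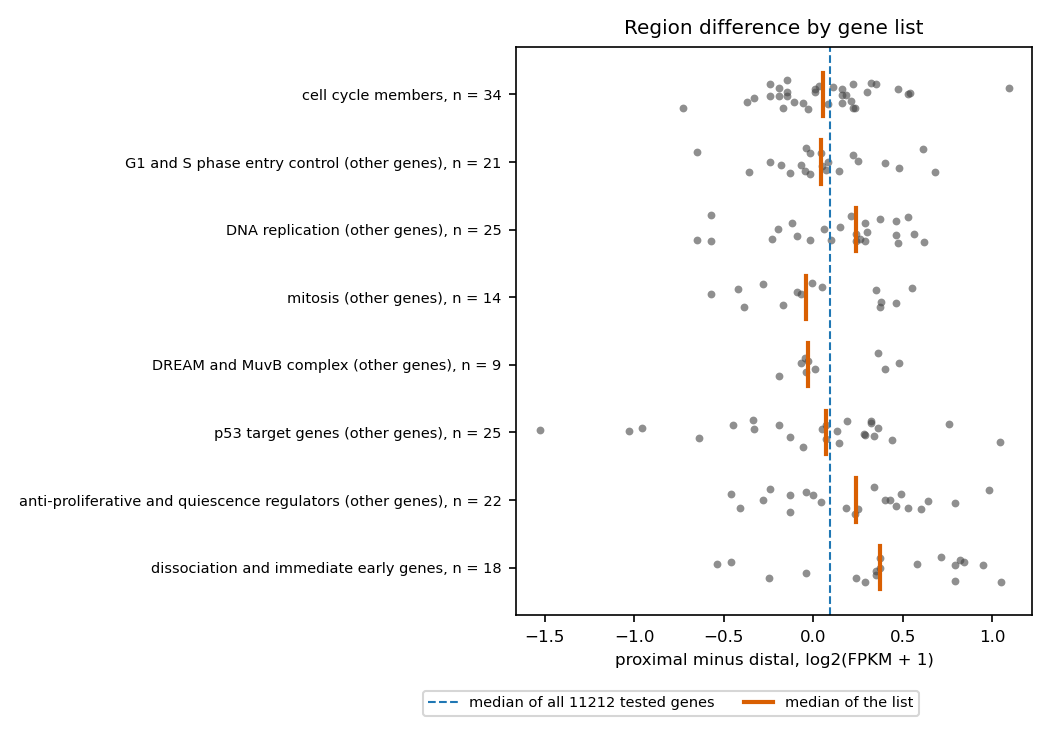
Proximal minus distal difference of log2(FPKM + 1) for each tested gene of the members and of 7 other lists (grey points, vertical position without meaning), with list medians in orange and the median of all tested genes (0.09) as a dashed blue line. The members centre on 0.06, and the list medians run from -0.04 (mitosis) to 0.37 (dissociation and immediate early genes).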

How the data were processed

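The 4 libraries were made from total RNA with a SMART-Seq low-input kit primed at random and at poly(A), then an Illumina DNA kit, per the labels' protocols. Such libraries do not mark strand. The submitters' processing notes name mm10, Cufflinks (0.0.6), TopHat2 (0.6) and bcl2fastq (1.8.3). Per the file headers, each file holds transcript FPKM, its bounds, length and coverage. Coverage signal in the deposited files divided by FPKM had medians between 5.22 and 6.34, so relative depth was similar.

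Gene symbols came from the positions of GENCODE M21 genes on the same assembly. Span overlap times length similarity had to reach 0.8 with no other gene within 0.8 of that score, or both ends had to lie within 100 bases of exons of 1 gene, or the score had to reach 0.5 with others under 0.25. This named 54872 of 63241 transcripts (96.2% of FPKM), and FPKM was summed per gene. Cdk7 and Jund of the other lists matched no named gene.

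Genes at 1 FPKM or more in at least 2 libraries without a failed or capped estimate (7 left out) were tested on log2(FPKM + 1), a scale that understates changes of low genes, with limma 3.58.1 in R 4.3.3 (region as the only term, mean trend, two-sided, Benjamini-Hochberg over 11212 genes, threshold 0.05). The fit was tested on simulated data with independent spread. Those data lacked the differences between library numbers seen here, so that test does not cover them. With 2 libraries a region, the smallest exact permutation p is 0.333. Members at 5 FPKM in 2 libraries, or tested with regions that do not overlap, are given by library. From each other list up to 4 genes without overlap and with the largest differences are named, and of marker lists those that define the cells. Genes named outside this rule (those in the closing section, Rrm1, Fos, Ccnf, Prc1, Krt5 and the Ccnd2 and Cdkn2c transcripts) were chosen after their values were seen. Members and lists were chosen with earlier results of these data known. Alternatives were the library number as a block, another pseudocount (0.1), no filter, 2 scalings, the highest transcript only and each library left out. Other steps ran in Python 3.11.15 (pandas 2.3.3, numpy 2.4.6), with plots from matplotlib 3.10.9.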

Additional observations from a re-analysis of the deposited data

How the results depend on the processing

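With the library number as a replicate block, 451 genes (4.02% of those tested) and 1 member, Cdkn2c (adjusted p = 0.0259, limma), passed, against 0 and 0 without it. Deviations from the region means correlated between same-numbered libraries (Pearson's r = 0.815 across genes), but what the numbers stand for is not in the labels. Without distal replicate 2, 40 genes (0.357%) passed, and without distal replicate 3, 26 genes (0.232%). Over the 4 fits that leave out a library the count of genes ranged from 0 to 40, with 0 members in each. Such fits keep 1 number in 1 region, so they mix region with number, and the lone library is assumed to vary like the others. The members' median log2 difference was -0.0697 under quantile normalization, -0.0236 under median ratio scaling and 0.0104 with the highest transcript only, and ranged from -0.0416 to 0.174 with 1 library left out. The other settings gave 0 genes and 0 members. The 7 members whose difference is given kept their direction under each of the 10 alternatives that gave a value. Cdk6 gave none with the highest transcript only. Of the 27 other tested members, 25 changed sign under at least 1. For the 5 members without overlap between regions, a left-out library or the block cannot change the sign, so those settings do not test their direction. All 25 changed sign with a library left out and 8 under other settings, so the contrast is largely set by how the 7 were chosen. Members without overlap between regions numbered 24 of 34 without proximal replicate 3 (77.7% of all genes), a setting chosen after seeing the data that compares 1 library with 2. The causes were not tested. Total fragments are unknown, so values under 1 FPKM carry no depth of their own beyond the authors' bounds.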

Other observations

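Of the 3 Cdk6 transcripts, the longest 2 were each listed at 0 in some libraries. The 2742-base transcript stood at 0.387 and 0.443 FPKM in distal 2 and proximal 2 and was listed at 0 in distal 3 and proximal 3, and the 2663-base transcript was listed at 0 in distal 2 and stood at 0.405, 0.282 and 0.840 FPKM in distal 3, proximal 2 and proximal 3. The 2496-base transcript, which lies over the 3' end, read 0.200 and 0.179 FPKM in distal against 0.358 and 0.481 FPKM in proximal libraries (numbers 2 and 3).

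Among listed genes outside the members, Gas1, a growth arrest gene, stood at 94 and 92.6 FPKM in the libraries numbered 2 (distal, proximal) against 9.19 and 13.6 FPKM in those numbered 3. Txnip, a thioredoxin inhibitor of resting cells, stood at 70.1 and 115 FPKM in the libraries numbered 2 and at 23.5 and 27.5 FPKM in those numbered 3. Slbp, the histone mRNA binding protein, stood at 41.2 and 33.4 FPKM in the libraries numbered 2 against 98.1 and 117 FPKM in those numbered 3. These 3 genes were chosen after their values were seen.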
